A study of Homo sapiens with 32 samples.

Results

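Among 6 drug-resistant lines of K-562, a human chronic myeloid leukaemia cell line, one line raised in imatinib (highIM-R1) and one raised in nilotinib (N-R2) lay close to each other across genes, although their drugs differ. Genes were kept where both of these lines lay outside the range of the other 4 resistant lines: lowIM-R1, lowIM-R2, highIM-R2 and N-R1. Of 14884 genes with 1 symbol on the array, 2795 were kept, 1151 with the pair above and 1644 with the pair below. The genes that stood farthest above were TYROBP, DOCK2, SUCNR1, ACSM3, RPL23AP87, FYB1 and CD44. Those farthest below were HERC5, CCND2, ASIC1 and FGF2. The pair lay within 0.5 log2 of drug-naive cells for 76.6% of genes below and 49.7% of genes above, where 69.8% of all genes did. Of genes at least 1 log2 outside the other lines, it did so for 1 of 64 above and 5 of 13 below.

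K-562 cells carry the BCR-ABL1 fusion kinase, which drives growth through RAS-MAPK signalling and through the transcription factor STAT5. Imatinib and nilotinib both occupy the ATP site of the ABL kinase domain, and cells held in rising doses can come to grow despite the drug, through changes in the kinase, in drug handling or in other signalling routes. K-562 has erythroid and megakaryocytic features, and its parent cell type, the myeloid progenitor, can also give rise to granulocytes and monocytes.

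The study compared naive cells with cells selected by stepwise dose increase up to 0.5 µM imatinib (lowIM), 2 µM imatinib (highIM) or 0.1 µM nilotinib (N). Each resistance has lines R1 and R2, given as biological replicates, with 4 technical arrays per line. The 8 naive arrays carry the letters S and K, which the labels do not explain, and were treated as 2 sets of 4. All sets share the K-562 background and carry the same growth text, which describes medium free of drug, so the presence of drug at harvest is unclear. The labels do not say whether a line is a clone or a pool.

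Values were log2 intensities, with 4 arrays averaged per set, and array medians ranged from 5.85 to 6.11. The median SD between the arrays of a set was 0.154. Arrays of a line are technical repeats, so every p-value below measures spread between arrays and not between independently selected lines. Of 12 erythroid markers of K-562, 4 were measured. GATA1 averaged between 9.12 and 9.71 in the 8 sets, at percentile 96.7 of all genes, and KLF1 between 7.54 and 9.08. Of 18 defining markers of other cell types, 9 were measured, and their mean level ranged from 6.45 to 7.24 over the sets, with 6.78 in highIM-R1 and 7.08 in N-R2. No detection calls were used, so no marker can be called absent. CD14, MPO, PAX5 and CSF1R stayed between 5.34 and 6.54 in every set, whereas SPI1 and LYZ were among the genes above (given below). CD2 lay between 6.13 and 6.86. KRT18, an epithelial keratin, was at 9.55 to 9.98 in every set, and EPCAM, an epithelial adhesion protein, ranged from 5.86 in highIM-R1 and 5.97 in N-R1 to 9.26 in lowIM-R1, with 8.59 in N-R2. In these bulk samples a change in the mix of cells and a change in RNA per cell cannot be told apart.

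The root mean square distance over genes between highIM-R1 and N-R2 was 0.403, a value that was used to choose the pair. Each lay farther from the other line of its own drug, 0.534 from highIM-R1 to highIM-R2 and 0.477 from N-R2 to N-R1. N-R2 was almost as near to lowIM-R2 (0.412). Closer still than the pair were lowIM-R2 to highIM-R2 (0.288), lowIM-R1 to lowIM-R2 (0.312) and lowIM-R1 to highIM-R2 (0.343). From naive S and K, highIM-R1 lay at 0.466 and 0.491, nearer than from lowIM-R1, lowIM-R2, highIM-R2 and N-R1 (0.523 to 0.540). For N-R2 the order was reversed, with 0.483 and 0.509 from naive S and K and 0.412 to 0.477 from those resistant lines. The differences between sister lines were taken as highIM-R1 minus highIM-R2 and N-R2 minus N-R1. They correlated at r = 0.201 across the 14884 genes, which share arrays and are not independent points. The pair was chosen for its closeness over these same genes, so r is not separate from that choice.

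The rule kept 7.73% of all genes above and 11.0% below. These shares come from the values that the rule used, and nothing was tested on them. Other pairs of lines were not put through the same rule. The gap is the log2 distance from the nearer line of the pair to the nearest of the other 4. Most gaps were small, with a median of 0.119 above and 0.097 below, both under the SD between arrays. A gap of at least 0.5 was held by 151 genes above and 73 below, a gap of at least 1 by 64 and 13, and a gap of at least 2 by 17 and 2. All 8 arrays of the pair lay above all 16 arrays of the other lines for 260 genes (1.75%) and below them for 221 genes (1.48%), which included every gene with a gap of at least 1. At the edge of the rule, RGPD6 was kept above with a gap of 0.00016 and CFAP53 with 0.00042, while GTSF1 and IQCN missed by 0.00013 and 0.00014. LRP4 and C16orf96 were kept below with 0.00003 and 0.00017, and PIF1 and ATOX1 missed by 0.00001 and 0.00010. The 2 lines lay outside on opposite sides for 858 genes, 468 with highIM-R1 above and 390 with N-R2 above.

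TYROBP, an adaptor that carries immunoreceptor signals to SYK, had the largest gap above, 3.37. Its level was 9.12 ± 0.18 in highIM-R1 and 8.87 ± 0.19 in N-R2 (mean log2 intensity ± SD, n = 4 arrays), against 5.46 ± 0.14 in lowIM-R1, 5.46 ± 0.24 in lowIM-R2, 5.47 ± 0.30 in highIM-R2 and 5.50 ± 0.18 in N-R1. Naive S lay at 5.84 ± 0.14 and naive K at 5.84 ± 0.21. The pair thus stood alone, and no mean of the other 6 sets exceeded 5.84. In limma's test the rise over naive was 3.28 ± 0.12 (SE) in highIM-R1 and 3.03 ± 0.12 in N-R2, with adjusted p of 5.58e-21 and 7.86e-20.

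SUCNR1, the receptor for extracellular succinate, was also high in the pair: 7.77 ± 0.24 and 7.68 ± 0.20 in highIM-R1 and N-R2, between 4.57 and 4.71 in the other 4 lines, and 4.50 ± 0.58 and 4.63 ± 0.45 in naive S and K. HCLS1, a cortactin-related substrate of haematopoietic kinases, reached 8.46 ± 0.24 and 7.63 ± 0.28 in the pair, between 4.98 and 5.35 in the other lines and 5.75 and 5.65 in naive S and K. CD44, the hyaluronan receptor, lay at 9.06 ± 0.19 and 8.23 ± 0.17 in the pair, between 5.13 and 5.63 in the other lines, and at 5.86 and 6.23 in naive S and K. For SUCNR1 naive cells sat with the other lines, whereas for HCLS1 and CD44 they lay slightly above all 4 of them and far below the pair. ELOVL7, a fatty acid elongase, and TMEM156 were arranged like HCLS1 and CD44, with pair minus naive differences of 2.56 and 2.25 and pair minus other lines differences of 3.29 and 2.92.

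FYB1, an adaptor that links T cell and platelet receptors to the cytoskeleton, was high in both lines but not equally. It lay at 10.06 ± 0.09 in highIM-R1 and 8.63 ± 0.16 in N-R2, between 5.66 and 5.96 in the other lines, and at 6.41 and 6.67 in naive S and K. The difference between the lines of the pair was 1.42 ± 0.16 (limma, adjusted p = 1.91e-08). RPL23AP87 and RPL23AP82 are pseudogene copies of a ribosomal protein gene, with gaps of 2.72 and 2.48. A dimmer feature of RPL23AP87 has the same mean in every set as the feature used for RPL23AP82, so the source of these signals is uncertain. For another, dimmer feature of RPL23AP82 the gap was -0.203, so N-R2 was inside the range of the other lines.

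DOCK2, an activator of RAC in leukocytes, had all 3 groups apart. It lay at 10.20 ± 0.07 and 9.64 ± 0.15 in the pair, 7.76 ± 0.15 and 7.99 ± 0.28 in naive S and K, and between 5.71 and 6.41 in the other lines. Relative to naive, limma gave a rise of 2.33 ± 0.12 in highIM-R1 (adjusted p = 9.68e-17) and a difference of -2.11 ± 0.12 in lowIM-R2 (adjusted p = 1.26e-15). CD69, an early activation antigen of leukocytes, was also split, with 9.58 ± 0.04 and 8.05 ± 0.11 in the pair, 7.49 and 6.97 in naive S and K, and between 4.22 and 5.97 in the other lines. Naive cells therefore lay between the pair and the other lines for both genes.

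In another arrangement naive cells were much nearer to the pair than to the other lines, although for none of the 4 genes that follow did both lines of the pair lie within 0.5 log2 of naive. ACSM3, a mitochondrial acyl-CoA synthetase, lay at 12.57 ± 0.05 and 11.88 ± 0.05 in the pair, 11.39 and 12.02 in naive S and K, and 8.66, 7.74, 7.18 and 9.14 in lowIM-R1, lowIM-R2, highIM-R2 and N-R1. ANXA1, annexin A1, a phospholipid-binding protein of myeloid cells, lay at 11.01 ± 0.09 and 10.80 ± 0.10 in the pair and at 10.34 and 10.38 in naive S and K. In the other lines it ranged from 4.79 ± 0.33 in highIM-R2 to 8.45 ± 0.11 in N-R1. SLAMF6, a leukocyte surface receptor, had 9.87 ± 0.08 and 7.99 ± 0.18 in the pair, 9.02 and 8.44 in naive S and K, and between 5.02 and 5.50 in the other lines. STAP1, a signalling adaptor, had 9.58 and 8.01 in the pair, 8.35 and 8.10 in naive S and K, and between 4.42 and 5.92 in the other lines. SLAMF6 was 1.88 ± 0.18 higher and STAP1 1.57 ± 0.17 higher in highIM-R1 than in N-R2 (limma, adjusted p of 1.03e-09 and 9.28e-09).

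**Figure D1:**
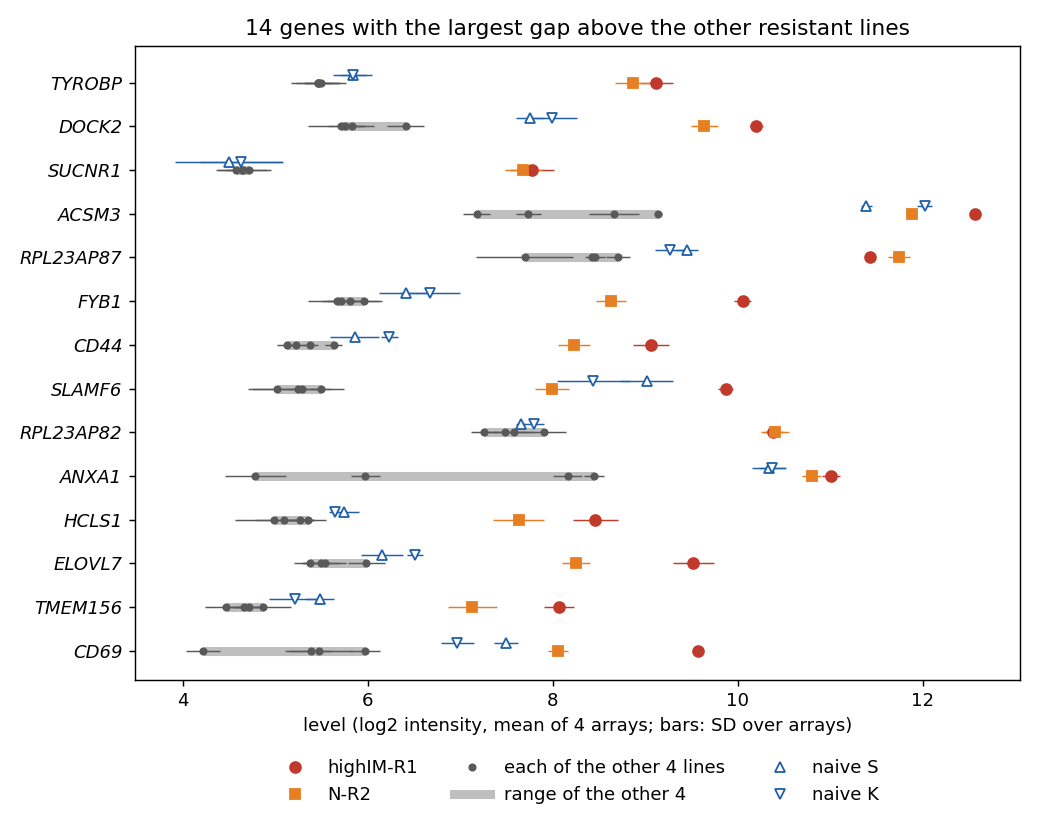
Level of the 14 genes with the largest gap above, in log2 intensity (mean of 4 arrays, bars show the SD over arrays). Red circles and orange squares are the pair, grey dots and bands the other 4 resistant lines, and open triangles the naive sets; TYROBP, SUCNR1 and RPL23AP82 have naive cells at or near the other lines, ACSM3, SLAMF6 and ANXA1 nearer the pair.

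HERC5, an interferon-induced ligase for the ubiquitin-like modifier ISG15, had the largest gap below, 2.11. It lay at 4.67 ± 0.37 in highIM-R1 and 5.17 ± 0.08 in N-R2, against 7.45 ± 0.31 in lowIM-R1, 7.28 ± 0.20 in lowIM-R2, 7.97 ± 0.17 in highIM-R2 and 8.97 ± 0.13 in N-R1. Naive S and K were at 5.55 ± 0.24 and 5.59 ± 0.23, so the other 4 lines were the high ones. CCND2, cyclin D2, which promotes entry into the cell cycle, was different. It lay at 5.53 ± 0.21 and 5.51 ± 0.24 in the pair, between 7.59 and 8.77 in the other lines, and at 8.25 ± 0.10 and 7.83 ± 0.18 in naive S and K. Its fall from naive was -2.51 ± 0.10 in highIM-R1 and -2.53 ± 0.10 in N-R2 (limma, adjusted p of 8.74e-20 and 1.09e-19), while the pair itself differed by 0.02 ± 0.12. A second, dimmer CCND2 feature had a gap of 0.140 in the same direction.

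FGF2, a growth factor made by many cell types, was also lowest in the pair: 5.54 ± 0.21 and 5.71 ± 0.16, against 7.23 to 8.78 in the other lines and 8.73 and 7.91 in naive S and K. In highIM-R2 it was called lower than naive as well, by limma's -1.09 (adjusted p = 2.92e-10). ASIC1, a proton-gated ion channel subunit, was instead at the naive level, 5.46 ± 0.23 and 5.58 ± 0.24 in the pair with 5.87 and 5.79 in naive S and K, and between 7.43 and 7.72 in the other lines. PROX1, a homeobox transcription factor, lay at 6.59 and 6.67 in the pair, 6.23 in both naive sets, and between 7.83 and 8.89 in the other lines. CPT1A, which carries fatty acids into mitochondria, lay at 6.12 and 6.54 in the pair, 6.63 and 6.23 in naive S and K, and between 7.67 and 8.41 in the other lines. Both lines of the pair were within 0.5 log2 of naive for ASIC1, GRASLND, PROX1, UBAC1, CPT1A and JPH3. MALT1, a paracaspase of NF-kB signalling, had naive cells between the groups, with 7.33 and 8.05 in the pair, 8.80 and 9.09 in naive S and K, and 9.45 to 10.55 in the other lines. MALT1, TCF4, MAPK4 and KC6 all lie on chromosome 18. For TCF4, a basic helix-loop-helix transcription factor, the pair was uneven: highIM-R1 was at 6.83 ± 0.20 and N-R2 at 8.06 ± 0.14, a difference of -1.23 ± 0.11 (limma, adjusted p = 8.47e-11), with N-R2 at the naive level of 8.09 and 7.94.

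**Figure D2:**
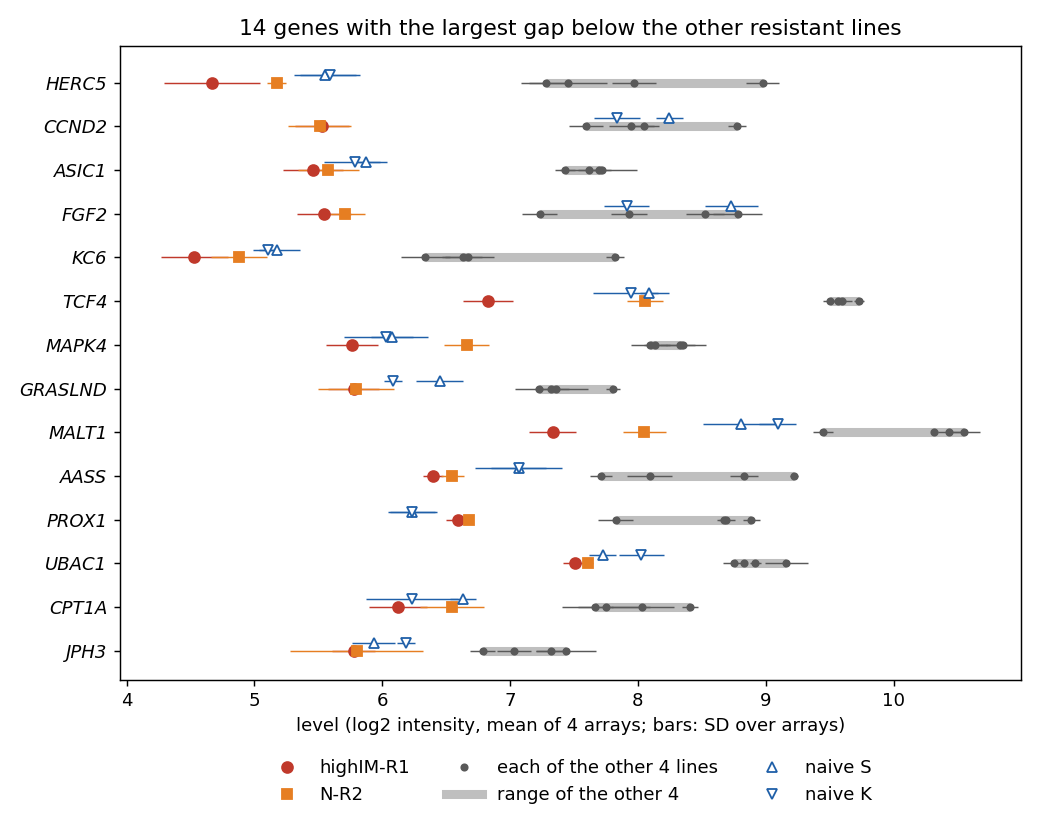
Level of the 14 genes with the largest gap below, in log2 intensity (mean of 4 arrays, bars show the SD over arrays), drawn as for the genes above. CCND2 and FGF2 are lowest in highIM-R1 and N-R2, with naive cells inside the range of the other lines, while for ASIC1, PROX1 and CPT1A the naive sets lie beside the pair and the other 4 lines are high.

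The 250 bases before the start (RefSeq, GRCh38.p14) are shown for genes that mark the pair most clearly. These are the 2 genes with the largest gap on each side that have an entry in the promoter set used. CCND2 had no entry in that set, and the next gene, ASIC1, was taken. Capitals mark matches, on either strand, to 6 motifs. They are AGATAA for the GATA family, GAGGAAG for PU.1-type ETS factors, CCGGAAG for other ETS factors, TGANTCA for the AP-1 family, TTCNNNGAA for the STAT family and GAAANNGAA for interferon-type elements. The TYROBP window (chr19:35908296-35908545, minus strand) has 2 matches to GAGGAAG, starting at bases 21 and 240 of the window. The DOCK2 window (chr5:169637025-169637274, plus strand) has 1, at base 222. The HERC5 window (chr4:88456869-88457118, plus strand) has 3 matches to GAAANNGAA, at bases 127, 133 and 178, of which the first and second overlap. The ASIC1 window (chr12:50057920-50058169, plus strand) has none of the 6.
TYROBP: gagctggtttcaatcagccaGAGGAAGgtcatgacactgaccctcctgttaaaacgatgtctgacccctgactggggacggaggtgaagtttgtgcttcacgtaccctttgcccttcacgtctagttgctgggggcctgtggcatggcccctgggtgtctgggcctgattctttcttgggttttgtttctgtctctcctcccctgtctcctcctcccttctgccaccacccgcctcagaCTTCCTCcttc
DOCK2: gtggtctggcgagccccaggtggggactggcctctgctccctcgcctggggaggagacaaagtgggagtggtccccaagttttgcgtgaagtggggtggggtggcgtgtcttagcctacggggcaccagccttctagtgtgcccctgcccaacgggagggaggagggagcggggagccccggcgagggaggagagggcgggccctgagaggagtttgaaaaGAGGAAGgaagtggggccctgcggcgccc
HERC5: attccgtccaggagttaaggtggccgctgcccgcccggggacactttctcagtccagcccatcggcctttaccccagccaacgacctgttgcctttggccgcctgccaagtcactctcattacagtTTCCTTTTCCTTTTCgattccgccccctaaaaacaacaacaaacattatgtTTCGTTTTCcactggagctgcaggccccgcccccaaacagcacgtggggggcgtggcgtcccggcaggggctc
ASIC1: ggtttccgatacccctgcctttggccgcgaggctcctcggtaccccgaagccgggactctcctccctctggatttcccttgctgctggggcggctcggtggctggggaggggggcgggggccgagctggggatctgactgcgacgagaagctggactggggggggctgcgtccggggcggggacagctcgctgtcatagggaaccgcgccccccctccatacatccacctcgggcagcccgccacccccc

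A window was found for 901 of the 1151 genes above, 1217 of the 1644 below and 10749 of all 14884 genes. GAGGAAG was present in 14.5% of the windows of genes above, 9.86% of those below and 12.1% of all genes measured. Among the 47 windows of genes above with a gap of at least 1, GAGGAAG was in 11 (23.4%), AGATAA and TGANTCA each in 5 (10.6%), GAAANNGAA in 4 (8.51%), and CCGGAAG and TTCNNNGAA each in 2 (4.26%). TGANTCA was in 6.77% above, 2.47% below and 5.14% of all genes, and AGATAA in 8.77%, 4.19% and 6.55%. CCGGAAG ran the other way, with 10.8% above, 16.5% below and 12.4% of all genes. TTCNNNGAA was in 6.1%, 5.83% and 5.92%, and GAAANNGAA in 5.66%, 4.27% and 5.67%. Genes below with a gap of at least 0.5 had 55 windows. Of these, CCGGAAG was in 7 (12.7%), GAGGAAG in 6 (10.9%) and AGATAA in 4 (7.27%). GAAANNGAA and TTCNNNGAA were each in 3 (5.45%), and TGANTCA in 1 (1.82%). Over all 27305 windows in the table the shares were 11.0% for GAGGAAG, 6.6% for TGANTCA, 9.37% for AGATAA, 8.82% for CCGGAAG, 6.78% for TTCNNNGAA and 7.06% for GAAANNGAA. These are counts of letters, and binding was not measured.

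Whether the pair matched naive cells depended on the direction and on the gap. A match means that both lines of the pair lay within 0.5 log2 of the mean of naive S and K, which held for 69.8% of all genes. Among genes below it held for 1259 of 1644 (76.6%), and among genes above for 572 of 1151 (49.7%). Conversely all 4 other lines matched naive for 53.5% of all genes, for 669 (40.7%) of those below and for 670 (58.2%) of those above. The pair thus matched naive somewhat more often than over all genes among genes below, and less often among genes above; nothing was tested on these shares.

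At larger gaps fewer genes matched. Part of this is set by the rule, since the pair and the other lines cannot both lie within 0.5 log2 of naive when the gap exceeds 1. Of the 64 genes above with a gap of at least 1, the pair matched naive in 1, the other lines in 10 and neither in 53. Of the 13 below, the pair matched in 5, the other lines in 0 and neither in 8. Both naive sets lay on the pair's side of all 4 other lines for 49 of these 64 and 11 of these 13. Over all kept genes that held for 442 of 1151 above (38.4%), where 21.7% of all genes had naive above the other lines, and for 992 of 1644 below (60.3%), where 25.3% of all genes had naive below them. Naive cells were nearer to the pair than to the other lines for 22 of the 64 and 10 of the 13.

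The leading pattern by which repeat arrays differ, a technical axis, also separated naive sets (scores of -20.8 and -25.1) from N-R1 and N-R2 (21.2 and 12.3), with highIM-R1 at -2.13. Across genes it correlated at r = -0.077 with pair minus other lines, at 0.530 with pair minus naive and at 0.568 with other lines minus naive. With this axis taken out, the pair matched naive for 81.8% of genes below and 59.6% of genes above, and naive lay on the pair's side for 42.5% and 39.7%. Without highIM-R1, so that N-R2 alone stood for the pair, naive lay on its side for 38.1% of genes below.

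**Figure D3:**
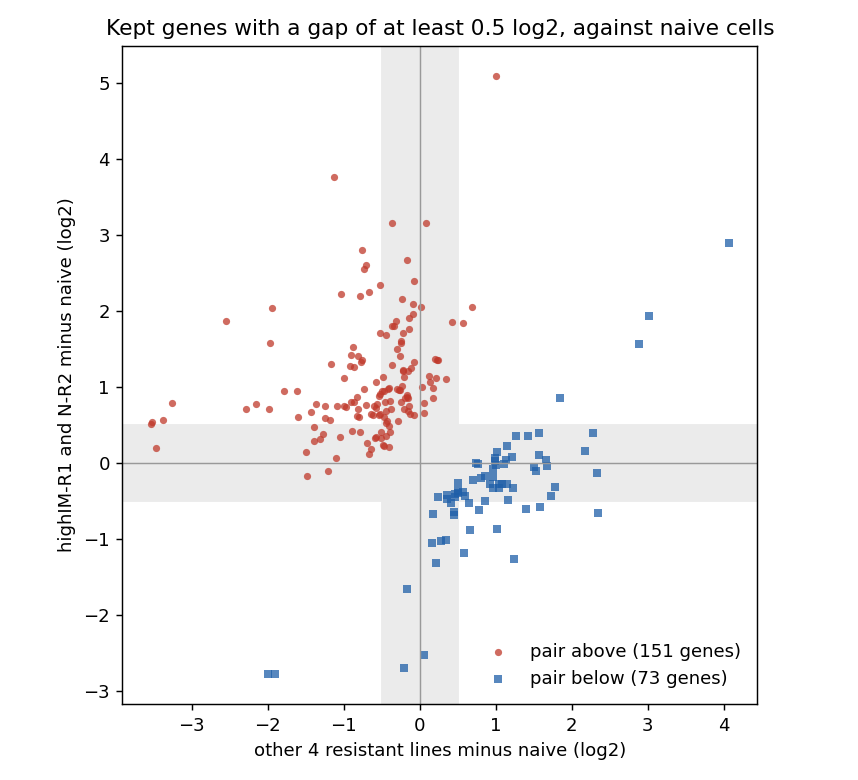
Each kept gene with a gap of at least 0.5 log2, 151 above (red circles) and 73 below (blue squares), by the mean of the other 4 lines minus naive (x axis, log2) and the mean of highIM-R1 and N-R2 minus naive (y axis, log2); grey bands mark differences within 0.5. Many blue squares lie in the horizontal band to the right, where the pair is at the naive level and the other lines are high, and most red circles lie above that band.

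In limma, with a call requiring an adjusted p under 0.05 and a difference of at least 1 log2, highIM-R1 was higher than naive at 3.14% of all genes and lower at 0.887%. N-R2 was higher at 3.1% and lower at 0.652%. Of the genes above, 189 were called higher in highIM-R1 and 131 in N-R2. Of the genes below, 28 were called lower in highIM-R1 and 20 in N-R2. The rule used the arrays of both lines, so these counts describe the kept genes and test nothing about them. With the technical axis taken out, N-R2 was called at 1.98% of genes in place of 3.76%.

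The lines of the pair differed from each other at 419 genes (2.82%) by the same call. Among genes above, 63 of 1151 were called, 51 of them higher in highIM-R1 and 12 higher in N-R2. Among genes below 15 of 1644 were called, 14 of them lower in highIM-R1. For those genes that differed, highIM-R1 mostly lay farther from the other lines. ELOVL7 was 1.27 ± 0.13 and CD69 1.52 ± 0.13 higher in highIM-R1 (limma, adjusted p of 3.29e-09 and 7.58e-11), whereas TYROBP, SUCNR1 and SYK differed by 0.26 ± 0.14, 0.09 ± 0.20 and -0.02 ± 0.11, which did not pass.

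The gene lists were chosen with earlier results of these data known, so their shares describe the pair and test nothing. Among them, leukocyte surface genes held the largest share above, 14 of 30 measured (46.7%, against 7.73% of all genes), with 0 below. Their median level was 6.96 in highIM-R1 and 6.76 in N-R2, 6.36 and 6.61 in naive S and K, and 5.72 to 5.85 in the other lines. CD37, a tetraspanin of leukocytes, lay at 8.28 and 9.00 in the pair, 7.14 and 7.29 in naive S and K, and between 6.20 and 6.51 in the other lines. CD84, a relative of SLAMF6, had 7.56 and 7.66 in the pair, 6.99 and 6.72 in naive S and K, and between 5.43 and 5.82 elsewhere. CD52, a glycoprotein anchored in the leukocyte membrane, was uneven, at 8.61 in highIM-R1 and 6.93 in N-R2, with 6.09 and 6.75 in naive S and K. At a gap of at least 0.5, 8 of the 30 remained above, against 151 of all 14884 genes.

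Signalling adaptors of blood cells had 9 of 22 above (40.9%) and 2 below. Besides FYB1 and STAP1, LCP2, a scaffold that acts downstream of SYK-family kinases, lay at 10.52 in highIM-R1 and 8.82 in N-R2. N-R1 was close at 8.53, the other lines were between 6.16 and 7.03, and naive S and K at 7.91 and 7.82. GAB3 was highest in N-R2 (8.98) and lay at 7.87 in highIM-R1, with N-R1 at 7.25. GAB1, a relative of GAB3 that couples receptors to SHP2 and PI3 kinase, was below, at 4.94 and 5.99 in the pair and 6.35 to 7.72 in the other lines. Naive S and K were at 5.32 and 5.38. Among 33 bypass kinases, kinases that can act beside BCR-ABL1, 5 were above (15.2%, against 7.73% of all genes) and 6 below (18.2%, against 11.0%). SYK, the kinase that TYROBP recruits, lay at 7.89 and 7.91 in the pair, 6.81 and 6.42 in naive S and K, and 5.22 to 6.34 in the other lines. It was 1.27 ± 0.10 above naive in highIM-R1 and 1.29 ± 0.10 in N-R2 (limma, adjusted p of 1.97e-12 and 1.72e-12). BTK and AXL were above with gaps of 0.367 and 0.353, and the receptor FGFR1 was below with a gap of 0.764, at 5.51 and 5.73 in the pair and 6.16 and 6.43 in naive S and K.

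MAPK output genes, which report activity of the RAS-ERK route, had 11 of 24 above (45.8%) and 1 below. Their median was 7.54 in highIM-R1 and 7.32 in N-R2, 6.81 and 6.94 in naive S and K, and 6.43 to 6.79 in the other lines. SPRY4, a feedback inhibitor of the route, lay at 8.60 and 7.55 in the pair, 7.40 and 7.13 in naive S and K, and 6.07 to 6.67 in the other lines. ETV4, an ETS factor, lay at 7.76 and 7.97 in the pair, 7.23 and 6.98 in naive S and K, and 6.02 to 6.70 in the other lines. CCND1, cyclin D1, lay at 7.69 and 7.68 in the pair, 6.71 and 7.19 in naive S and K, and 6.14 to 6.53 in the other lines, opposite in direction to CCND2. EGR1, an immediate early factor, had a gap of only 0.080, since lowIM-R2 at 10.26 nearly reached N-R2 at 10.34. At a gap of at least 0.5, 3 of the 24 remained above, against 151 of all 14884 genes. Against naive, 5 of the 24 were called higher in highIM-R1 and 3 in N-R2, with 0 and 1 called lower, where 3.14% and 3.1% of all genes were called higher.

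STAT5 targets ran mainly the other way, with 7 of 20 below (35.0%, against 11.0% of all genes) and 3 above. CISH, a feedback inhibitor of cytokine receptors, lay at 6.71 and 6.33 in the pair, 8.41 and 8.05 in naive S and K, and 7.12 to 8.73 in the other lines. SOCS2, of the same family, lay at 6.27 and 6.19 in the pair, 7.67 and 7.45 in naive S and K, and 6.67 to 7.78 in the other lines. PIM2, a survival kinase, lay at 7.44 and 7.51 in the pair, 9.12 and 8.45 in naive S and K, and 8.41 to 9.65 in the other lines. IGF1, insulin-like growth factor 1, lay at 5.64 and 5.69 in the pair, 8.07 and 7.17 in naive S and K, and 6.15 to 9.69 in the other lines. In these genes and CCND2 the pair was below naive as well. CISH, SOCS2 and IGF1 were also below both naive sets in lowIM-R1, lowIM-R2 and highIM-R2, but above both in N-R1. IGF1, for example, lay at 6.47, 6.37 and 6.15 in those lines. For PIM2 and CCND2 this did not hold in all of them. Of the 20 targets, 7 were called lower than naive in each line of the pair, where 0.887% and 0.652% of all genes were. In highIM-R1 2 were called higher, and in N-R2 0. Calls in the other lines were not counted for this list. STAT5A itself was above, at 8.61 and 9.03 in the pair, 8.59 and 8.35 in naive S and K, and 6.68 to 8.09 in the other lines. MCL1, a survival protein of the BCL2 family, was above with a gap of 0.090, at 10.19 in highIM-R1 and 8.74 in N-R2. The list's median level was 7.12 and 7.00 in the pair, and 8.02 and 7.43 in naive S and K. It was 7.24, 7.30 and 7.18 in lowIM-R1, lowIM-R2 and highIM-R2, and 8.10 in N-R1. At a gap of at least 0.5, 2 of the 20 were below and 2 above, against 73 and 151 of all 14884 genes.

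Heat shock genes had 9 of 17 below (52.9%) and 2 above. HSPA1A and HSPA1B, which encode near-identical inducible HSP70 chaperones and whose signals the array may not separate, had gaps of 0.618 and 0.524. HSPA1A was at 9.99 and 9.98 in the pair, 10.61 to 11.23 in the other lines, and 12.34 and 13.18 in naive S and K. All 6 resistant lines were therefore under naive and the pair was lowest. The remaining members below had gaps of at most 0.242, among them HSPH1, HSPA4, HSPB1, STIP1 and HSF1, the master regulator of the response. For HSPA4 the pair matched naive, at 9.68 and 9.72 against 9.59 and 9.77. The list's median pair minus other lines difference was -0.286, where the median of all genes was -0.023.

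Integrated stress response genes, which cells induce when amino acids or protein folding fail, had 6 of 23 above (26.1%) and 0 below, with 0 at a gap of at least 0.5. The list's median pair minus naive difference was -0.128 and that of the other lines -0.680, but the lines of the pair were not alike. The median difference from naive was 0.092 in highIM-R1 and -0.294 in N-R2, and N-R2's median level of 8.16 was under the 8.37 of N-R1. ASNS, asparagine synthetase, lay at 9.40 and 9.46 in the pair, 9.58 and 9.44 in naive S and K, and 8.16 to 8.91 in the other lines. PHGDH, the first enzyme of serine synthesis, lay at 8.98 and 8.74 in the pair, 8.97 and 8.53 in naive S and K, and 7.82 to 8.31 in the other lines. The aminoacyl-tRNA synthetases AARS1, GARS1 and SARS1 had gaps of 0.065, 0.100 and 0.099.

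Among lineage genes, megakaryocyte and platelet genes had 6 of 21 above (28.6%) and 0 below. F2R, the platelet thrombin receptor, lay at 9.41 and 8.86 in the pair, 7.40 and 7.17 in naive S and K, and 7.47 to 7.97 in the other lines. MEIS1, a homeobox cofactor of progenitors and megakaryocytes, lay at 7.80 and 7.85 in the pair, 6.56 and 6.36 in naive S and K, and 6.15 to 7.00 in the other lines. SRGN, serglycin, was kept by a gap of 0.077, with N-R2 at 8.92 and highIM-R1 at 5.78. The other lines were at 5.64 to 5.70 and naive S and K at 7.58 and 7.69, so that highIM-R1 was lower than naive by limma's -1.86 ± 0.11 (adjusted p = 2.78e-15). Granulocyte and monocyte genes had 4 of 21 above (19.0%) and 1 below, and the list's median difference between the pair and the other lines was -0.027. SPI1, which encodes PU.1, lay at 7.69 and 8.02 in the pair, 6.76 and 7.13 in naive S and K, and 6.18 to 6.71 in the other lines. LYZ, lysozyme, lay at 7.45 and 8.35 in the pair, 7.55 and 7.95 in naive S and K, and 5.90 to 6.57 in the other lines. CSF3R was above by 0.047.

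Erythroid genes had 0 of 25 above and 3 below (12.0%, against 11.0% of all genes). Their median difference between the pair and the other lines was -0.414, and their median level was 7.29 in highIM-R1, 7.98 in N-R2, 7.92 to 8.24 in the other lines, and 6.93 and 7.44 in naive S and K. The 3 were TAL1, FECH and ERMAP. FECH, which inserts iron into haem, lay at 7.57 in highIM-R1, 9.02 in N-R2 and 9.13 to 10.03 in the other lines, with 7.83 and 7.69 in naive S and K. The lines of the pair were therefore unlike each other here, by -1.45 ± 0.11 (limma, adjusted p = 5.54e-12). Cell cycle genes had 9 of 43 below (20.9%) and 2 above. Their median level was 8.21 in highIM-R1, but 8.75 in N-R2, inside the 8.61 to 8.78 of the other lines. Naive S and K were under both lines of the pair, at 8.10 and 7.83. CDC25A, a phosphatase that activates cyclin-dependent kinases, was below, at 7.55 and 7.34 in the pair, 7.56 and 7.06 in naive S and K, and 7.98 to 8.38 in the other lines. BCR, the partner gene of the fusion, was below with a gap of 0.298. It lay at 7.82 and 7.67 in the pair, 7.84 and 7.91 in naive S and K, and 8.12 to 8.85 in the other lines. ABL2, a relative of ABL1 that both drugs also bind, was above with a gap of 0.207, at 8.45 in highIM-R1 and 7.87 in N-R2. For a second, dimmer ABL2 feature the gap was -0.085, so the pair was inside the range of the other lines.

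The other lists are given by their counts. Lymphoid genes had 1 of 30 above and 5 below, cholesterol synthesis genes 1 of 17 and 4 (23.5% below), extracellular matrix genes 4 of 23 (17.4%) and 3, stem and progenitor genes 4 of 25 (16%) and 1, and BCL2 family genes 3 of 19 and 2. Interferon response genes had 1 of 29 above (3.45%) and 3 below (10.3%). Those below were HERC5, its neighbour HERC6 and RSAD2, with gaps of 2.11, 0.081 and 0.373. The 1 above was IFITM2, a membrane protein that restricts virus entry, with a gap of 1.73. It lay at 10.01 and 10.56 in the pair, 8.61 and 8.23 in naive S and K, and 4.88 to 8.28 in the other lines. Mesenchymal transition genes had 2 of 13 above (15.4%) and 3 below (23.1%), and autophagy and lysosome genes 2 of 28 (7.14%) and 2 (7.14%). Mast cell and basophil genes had 2 of 16 (12.5%) and 1 (6.25%), and epithelial and fibroblast genes 2 of 17 (11.8%) and 0. Hypoxia and glycolysis genes had 1 of 21 (4.76%) and 3 (14.3%), and homeobox cluster genes 0 of 27 and 3 (11.1%). Genes of the aryl hydrocarbon receptor pathway had 1 of 7 (14.3%) and 1 (14.3%). Cell adhesion genes had 1 of 19 above (5.26%), CD44, and 0 below.

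**Figure D4:**
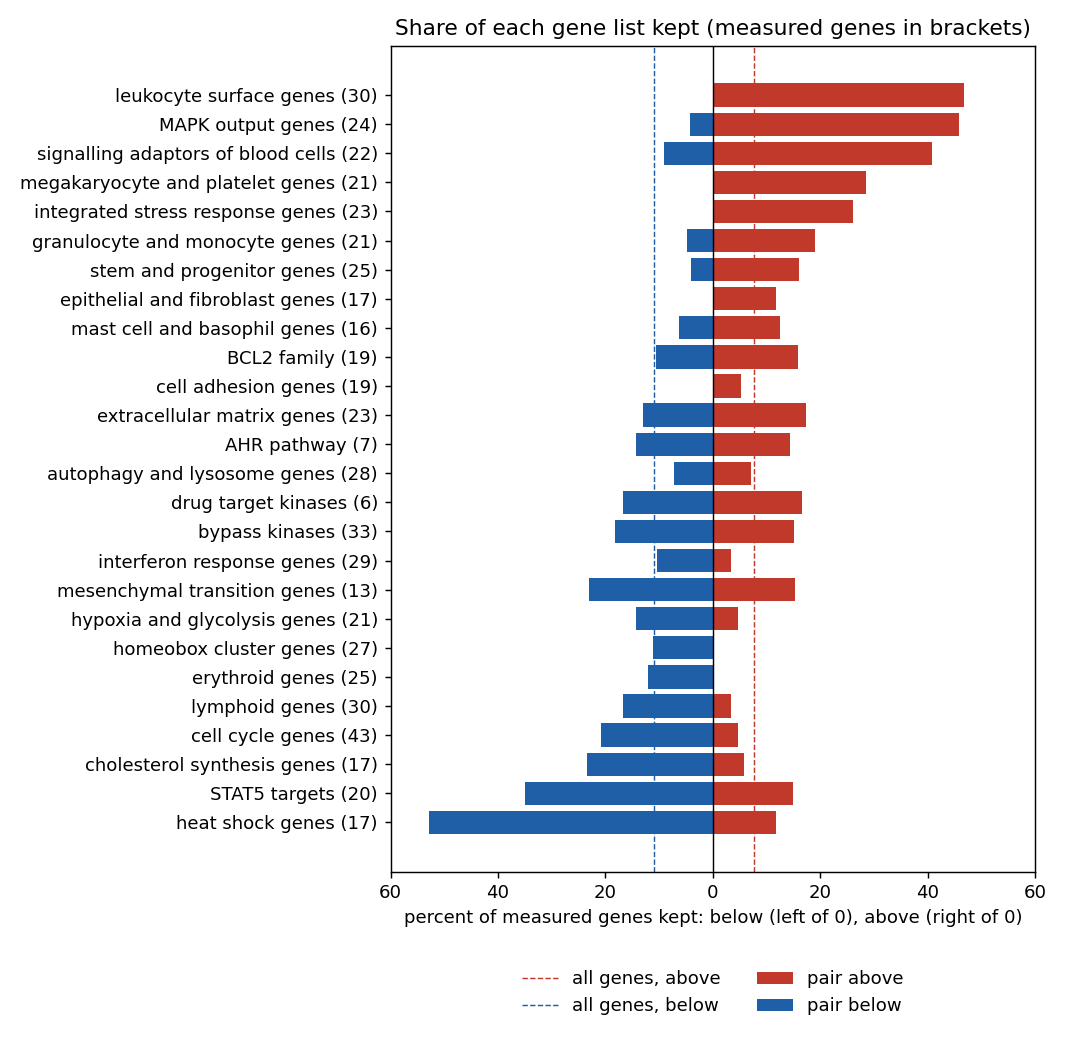
Percent of the measured genes of each list with the pair above (red, right of 0) or below (blue, left of 0) all 4 other lines, with measured genes in brackets; dashed lines are the shares of all genes, 7.73 above and 11.0 below. Leukocyte surface (46.7) and MAPK output genes (45.8) reach farthest to the right and heat shock genes (52.9) farthest to the left. The lists were chosen with earlier results of these data known.

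The kept genes were unevenly spread over chromosomes. Below, the share was 25.4% on chromosome 8 (139 of 547 genes), 21.9% on chromosome 4 (134 of 612) and 17.8% on chromosome 15 (83 of 465), against 3.79% on chromosome 11. Above, it was 12.5% on chromosome 1 (181 of 1452) and 12.2% on chromosome 12 (92 of 754), against 2.01% on chromosome 8. The shifts behind these shares were small: the median pair minus other lines difference was -0.122 on chromosome 8, -0.110 on chromosome 4 and 0.043 on chromosome 1. At a gap of at least 0.5, where 73 of all 14884 genes were below, chromosome 8 had 4 of its 547 genes below. Chromosome 18 had 6 of its 232. DNA copy number was not measured.

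**Figure D5:**
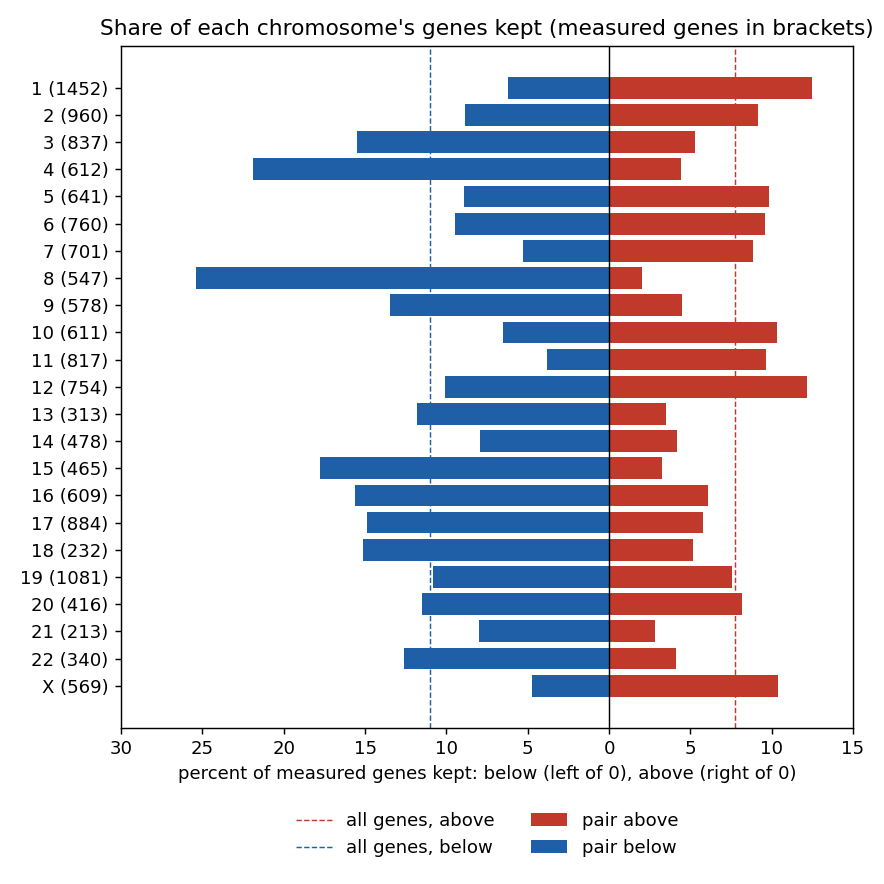
Percent of each chromosome's measured genes with the pair above (red, right of 0) or below (blue, left of 0) all 4 other lines, with measured genes in brackets; dashed lines are the shares of all genes. Chromosomes 8 (25.4) and 4 (21.9) have the largest shares below, and 1 (12.5) and 12 (12.2) the largest above.

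Some kept genes were neighbours among the genes measured. On the X chromosome MSN, MIR223, VSIG4 and HEPH followed each other, all above, with a median pair minus other lines difference of 2.32. MIR223, the gene of miR-223, a microRNA of myeloid cells, lay at 8.25 in highIM-R1 and 8.96 in N-R2, 8.05 and 7.72 in naive S and K, and 5.55, 5.68, 5.51 and 6.87 in lowIM-R1, lowIM-R2, highIM-R2 and N-R1. Naive cells were thus nearer to the pair than to the other lines. MSN, moesin, a linker of membrane and actin, lay at 12.18 and 12.08 in the pair, 11.46 and 11.19 in naive S and K, and 9.90 to 11.37 in the other lines. VSIG4, a complement receptor of macrophages, was high mainly in highIM-R1, at 9.80 against 6.94 in N-R2, 6.14 and 6.29 in naive S and K and 5.88 to 6.14 in the other lines. HEPH, a ferroxidase, lay at 9.81 and 10.26 in the pair and 5.88 to 9.47 in the other lines. The mature arms of miR-223 are given from RefSeq (GRCh38.p14), with the seed, bases 2 to 8, in capitals. They lie at chrX:66018895-66018916 and chrX:66018937-66018958 on the plus strand, and levels of the mature RNAs were not measured separately.
hsa-miR-223-5p: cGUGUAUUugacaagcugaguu
hsa-miR-223-3p: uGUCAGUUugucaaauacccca

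Other such runs were NHLH1, SLAMF6 and CD84 on chromosome 1, HAPLN3, MFGE8 and ABHD2 on chromosome 15, and STAT5A, STAT3 and CAVIN1 on chromosome 17, all above, with median differences of 2.00, 1.45 and 1.40. Below, runs were CMC2, CENPN, ATMIN, C16orf46 and GCSH on chromosome 16, DMXL2, SCG3 and TMOD2 on chromosome 15, and RSAD2, GRASLND and RNF144A on chromosome 2, with median differences of -0.64, -2.01 and -1.64. These runs were picked out after their values were seen.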

How the data were processed

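Values were deposited log2 intensities per array feature for 32 arrays, made by the authors with Transcriptome Analysis Console 4.0 per the submitters' processing notes. No label states the log base, which was read from the range of values (1.24 to 14.2). Their normalization is likewise unstated in the sources used here. Of 53617 features, 16098 carried 1 symbol in the platform annotation. The brightest feature stood for each of 14884 genes, 779 of which had more than 1.

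Set means over 4 arrays entered the rule for the pair, with no test. Single lines were compared with the mean of both naive sets, and highIM-R1 with N-R2, by limma 3.58.1 in R 4.3.3 on the 32 arrays (24 residual degrees of freedom, Benjamini-Hochberg adjustment over all genes). Errors cover array spread only, and precision is limited by having 4 arrays per set. The script was tested on simulated data. Named genes were the 14 largest gaps on each side, the member of each list with the largest gap, and the edge of the rule. Other list members were named after their values were seen. The members and the 26 gene lists were chosen with earlier results of these data known. Array numbers do not pair samples: deviations of same-numbered arrays correlated at a median r of -0.007.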

Additional observations from a re-analysis of the deposited data

Results flagged for a closer look

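Over 405 groups of 4 values (arrays of a set, or the other 4 lines, for each named gene), 27 had an extreme value set apart from the rest, where chance flags about 1 in 20. An array lay low for TYROBP in N-R2 (8.58, others 8.92 to 8.98), ANXA1 in naive S (10.07, others 10.39 to 10.45), HCLS1 in lowIM-R2 (4.36, others 5.14 to 5.22) and HCLS1 in highIM-R2 (5.03, others 5.33 to 5.35) (log2 intensity). The lowest array also stood apart for HERC5 in naive S (5.19, others 5.64 to 5.72), HERC5 in lowIM-R2 (6.99, others 7.36 to 7.42), CCND2 in lowIM-R2 (7.39, others 7.64 to 7.67) and ASIC1 in lowIM-R1 (7.25, others 7.82 to 7.87). Low single arrays were found too for KC6 in naive S (4.90, others 5.24 to 5.30), KC6 in N-R2 (4.55, others 4.98 to 5.00), MAPK4 in highIM-R1 (5.46, others 5.84 to 5.88) and PROX1 in lowIM-R2 (8.61, others 8.68 to 8.70). The same held for IL1RL1 in naive S (5.76, others 5.90 to 5.93), BCR in N-R2 (7.48, others 7.71 to 7.75), SYK in N-R2 (7.72, others 7.96 to 7.99) and CLDN7 in N-R1 (6.21, others 6.50 to 6.53). An array lay high for DOCK2 in highIM-R1 (10.30, others 10.16 to 10.17), ASIC1 in naive S (6.04, others 5.80 to 5.83), MAPK4 in N-R1 (8.27, others 8.08 to 8.11) and BCR in lowIM-R2 (8.40, others 8.28 to 8.30). The highest array also stood apart for ATG2A in naive K (7.30, others 7.07 to 7.10), HSPG2 in lowIM-R1 (7.49, others 7.27 to 7.30) and HOXC13 in highIM-R2 (7.51, others 7.21 to 7.25). Among the other 4 lines, N-R1 was apart and highest for TYROBP at 5.50 (rest 5.46 to 5.47), DOCK2 at 6.41 (rest 5.71 to 5.83) and STAP1 at 5.92 (rest 4.42 to 4.59), and lowIM-R1 for BNIP3 at 8.56 (rest 8.39 to 8.40). All of these are named genes, chosen with the flagged arrays and lines included. That the pair lay outside the range of the other lines is therefore set by the rule.

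For 6 named genes the lines of the pair differed from each other by limma's call, as highIM-R1 minus N-R2: FYB1 by 1.42, SLAMF6 by 1.88, ELOVL7 by 1.27, CD69 by 1.52, STAP1 by 1.57 and TCF4 by -1.23 log2. Because both are set against the same naive arrays, this is also the difference of their changes from naive.

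Among array features without a symbol, 44 had the pair above the other lines and above both naive sets by at least 1 log2. They entered no comparison here.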

How the results depend on the processing

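Of 45 named genes, 43 kept their side under every alternative run on them, among them all 34 with a gap of at least 0.5. TAL1 and PTGES3 were lost in 2 and 1 of these. The runs were rescalings, other averages, and omissions of dim genes, lines or array numbers, and leaving out a line cannot lose a gene. The stricter rules given below and the use of every array feature were not run on the named genes. Named genes with overlapping arrays or smaller gaps fail those stricter rules by definition. No kept gene changed sides under quantile normalization, a median shift, removal of the technical axis or the other rescalings. Many were no longer outside the other lines, however. Of the 1151 genes above and 1644 below, 1074 and 1368 stayed kept when arrays were quantile normalized. Correcting for the axis retained 1038 and 1366 of them. Medians of the arrays in place of means retained 988 and 1390, and omitting array number 4 retained 946 and 1252. Requiring all arrays outside left 1.75% of genes above and 1.48% below, a gap of at least 0.5 left 1.01% and 0.49%, and a gap of at least 1 left 0.43% and 0.0873%. With 1 line fewer the rule is looser by construction, and leaving out each line or array number in turn gave 7.41% to 23.2% above and 9.91% to 27.0% below, the highest without N-R2. The pair within 0.5 of naive fell above from 49.7% to 18.1% with all arrays outside, to 9.93% at a gap of at least 0.5 and to 1.56% at a gap of at least 1, and below from 76.6% to 50.7% and 38.5% at those gaps. A match within 0.25 gave 28.4% above and 34.5% below, and within 1 it gave 79.3% above. Naive on the pair's side rose above from 38.4% to 62.9% and 76.6% at gaps of at least 0.5 and 1; below, it was 60.3%, 46.7% after quantile normalization, 42.5% without the technical axis, and 38.1% (without highIM-R1) to 68.3% with a line or array number left out. In limma, dropping the minimum difference raised calls against naive to 40% in highIM-R1, 55.2% in N-R2, 67.7% in N-R1, 42.9% in highIM-R2, 46.9% in lowIM-R1 and 48.6% in lowIM-R2, and highIM-R1 against N-R2 to 28.5%. Removing the technical axis cut N-R1 from 6.62% to 3.25% and N-R2 from 3.76% to 1.98%; leaving out the dimmest 40% of genes moved highIM-R2 from 4.72% to 7.14% and lowIM-R2 from 4.78% to 7.27%. With the array number as a replicate block, calls stayed at 4.02% in highIM-R1, 3.76% in N-R2 and 2.82% between them. Apart from what the rule sets by construction, the cause of these changes was not tested.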

Other observations

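Outside the named genes, 37519 array features carried no symbol here. Of these, 60 had the pair above the other 4 lines by at least 1 log2.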
